A study of Arabidopsis thaliana with 24 samples.

Results

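The comparison described here is between the Distal and the Medial cells of the PUB25 line, a GFP reporter line of Arabidopsis thaliana in the Col-0 background. Its members are the 6 libraries of these 2 groups, 3 for Distal and 3 for Medial, of 24 libraries in the series. In each reporter line (PUB25, SPT and TMO5), root meristem cells were turned into protoplasts and sorted by the brightness of GFP into cell populations labelled Proximal, Medial and Distal. PUB25 and SPT have 3 libraries for each zone and are labelled as root meristem, and TMO5 has 2 for each zone and is labelled as meristematic xylem. All groups share the ecotype, the protoplasting and the sorting, no mutant allele or treatment is named for any of them, and plant age, the reporter construct, the intensity limits of the gates and which end of the meristem each name points to are not given in the sources used here. For each zone the deposited table holds 1 FPKM value per gene (fragments per kilobase of transcript, scaled to the mapped fragments of the library), made by the authors from the pooled libraries, so the spread between the 3 libraries cannot be shown and no SD is given. A gene was counted as measured where its mean over the 3 PUB25 zones was at least 1 FPKM, which 16605 of 32619 rows passed. These rows are called genes below, although 805 of them join the names of several genes and 565 have several loci.

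The root of Arabidopsis grows from a stem cell niche near its tip, around which lie the root cap and, behind it, rows of dividing cells that later enlarge and differentiate. PLETHORA transcription factors and the sulfated RGF peptides keep cells dividing and are strongest close to the niche. Xylem vessels are the water-conducting cells of the stele: they build a lignified secondary wall of cellulose and xylan and then die in a programmed way, which removes their contents.

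The tables carry a q value from the authors for Distal against Medial, and a gene is said below to have risen or fallen, from Medial to Distal, only where this q in the authors' deposited table is under 0.05. By that rule 1823 of the 16605 measured genes rose, or 11.0%, and 1890 fell, or 11.4%. Counts of called list members given below are to be read beside these shares. A difference of at least 2-fold on the log2(FPKM + 1) scale is used as a measure of size alone, without a test. It was reached by 539 genes upward, 3.25% of those measured, and by 508 downward, 3.06%. Among the genes that rose or fell, 21.4% also differed at least 2-fold, 414 upward and 379 downward. The median difference over all measured genes was -0.00 on the log2 scale, and the middle 50% of genes lay between -0.26 and 0.25. Most of the differences that the authors' test called were therefore smaller than 2-fold. The smallest q in the authors' deposited table is 0.000407, which is shared by all genes at its lower limit. Of the rows of a single gene, 2359 have a deposited locus that holds another annotated gene, 146 of them called higher and 173 lower, and reads of the overlapping genes cannot be told apart there. Among genes named below this holds for LAC17, CESA7, CESA8, VND2, MYB58, REV, GL2, CASP1, PYK10, FIB1, FIB2, APL1, BAM2, LEA7, ATAF1, IAA13, BRI1, CCS52A2, SIM, TUB1, OTP86 and AT1G45236. Depth per library is unknown. Ranks of named genes given below are among rows of 1 gene with a symbol, q under 0.05 and 5 FPKM or more in Medial or Distal. The row AT2G01021, which is not among them, alone held 63.0% of all FPKM in Medial and 59.0% in Distal. The gene PUB25, an E3 ubiquitin ligase whose name the line carries, was at 9.15 FPKM in Proximal, 4.98 in Medial and 5.01 in Distal, with q = 0.982 for Distal against Medial in the authors' deposited table. Since the samples are pools of sorted cells, fewer cells of a type and less RNA per cell cannot be told apart in any result below.

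Genes of vessel walls and of developmental cell death gave 5 of the 12 largest rises of named genes, LAC4, LAC11, LAC17, MC9 and MC5. Of 33 measured genes for vessel walls and developmental cell death, 26 rose and 1 fell, with a median log2 difference of 1.25, and 21 were at least 2-fold higher in Distal. LAC4, LAC11 and LAC17, laccases that polymerise lignin in vessel walls, were 3 of these. LAC4 was at 4.16 FPKM in Proximal, 2.43 in Medial and 17.9 in Distal, a 7.37-fold rise from Medial to Distal. LAC11 was at 0.656 FPKM in Proximal, 1.55 in Medial and 11.8 in Distal, and LAC17 was at 1.40 FPKM in Proximal, 1.40 in Medial and 10.08 in Distal. By the authors' q LAC4 was lower in Medial than in Proximal, and LAC11 and LAC17 were not called at that step. Each of the 3 had its highest value in Distal. The secondary wall cellulose synthases were likewise highest in Distal and no higher in Medial than in Proximal. CESA4 was at 4.11 FPKM in Proximal, 3.78 in Medial and 15.3 in Distal, CESA7 at 6.17 FPKM in Proximal, 4.13 in Medial and 16.1 in Distal, and CESA8 at 2.09 FPKM in Proximal, 0.994 in Medial and 5.99 in Distal. The xylan genes IRX9 and IRX15 rose from 1.34 FPKM in Medial to 4.46 in Distal and from 1.19 FPKM in Medial to 4.76 in Distal. IRX14, which also acts in xylan synthesis, was at 25.4 FPKM in Medial and 31.2 in Distal and did not pass the test. 

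VND1 to VND5, VND7 and MYB46, regulators above these enzymes, stayed under 10 FPKM, and all of them but VND5 rose. VND7, the NAC factor that can turn cells into vessels, rose from 0.896 FPKM in Medial to 2.46 in Distal. VND1, VND2, VND3 and VND4, its relatives, rose by 1.08, 1.13, 1.17 and 1.43 on the log2(FPKM + 1) scale. MYB46, a secondary wall MYB factor that acts downstream of the NAC factors, was at 5.16 FPKM in Proximal, 2.89 in Medial and 8.25 in Distal. VND5 (0.944 FPKM in Medial and 1.99 in Distal) was not called.

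The proteases and nucleases of cell death followed 2 kinds of course over the zones. XCP2, a papain-like protease stored in the vessel vacuole, was at 32.9 FPKM in Proximal, 28.2 in Medial and 114 in Distal. Its relative XCP1 was at 3.67 FPKM in Proximal, 3.58 in Medial and 15.5 in Distal. Neither was called between Proximal and Medial. By contrast, MC9, a metacaspase that takes part in clearing dead vessel cells and is also expressed in the dying root cap, was at 1.25 FPKM in Proximal, 54.1 in Medial and 337 in Distal. MC9 had a 6.22-fold rise from Medial to Distal and was already far above its Proximal level in Medial. The ribonuclease gene RNS3 was at 0.771 FPKM in Proximal, 94.6 in Medial and 320.3 in Distal, and the nuclease gene BFN1 was at 0.339 FPKM in Proximal, 29.1 in Medial and 104 in Distal. MC5, another metacaspase gene, was at 1.27 FPKM in Proximal, 6.02 in Medial and 36.9 in Distal. These 4 genes were called higher at both steps. MC3, a metacaspase gene, fell from 29.7 FPKM in Medial to 15.05 in Distal and was the only one of the list to fall.

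**Figure D1:**
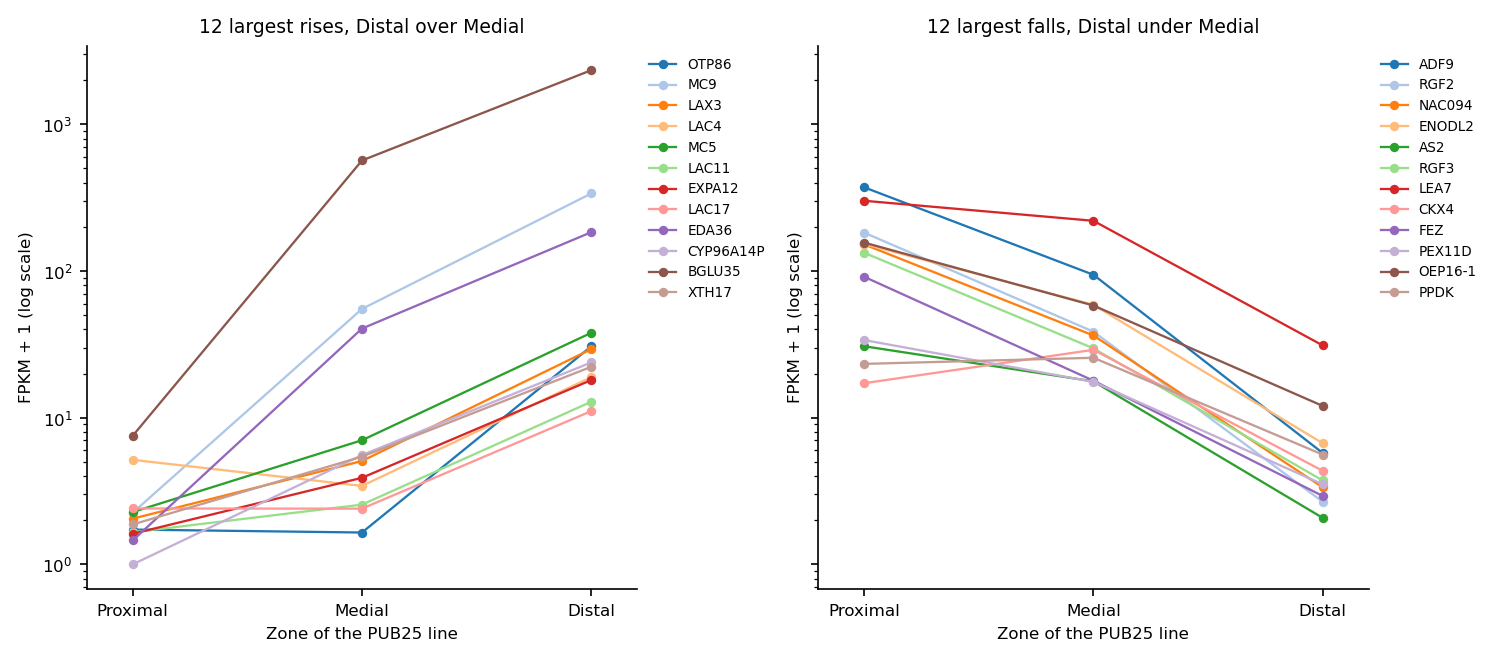
FPKM + 1 on a log axis in the Proximal, Medial and Distal zones of the PUB25 line, 1 pooled value for each zone, for the 12 named genes with the largest rises (left) and the 12 with the largest falls (right) from Medial to Distal on the log2(FPKM + 1) scale. LAC4, LAC17 and OTP86 are not higher in Medial than in Proximal and are high in Distal, MC9, EDA36 and BGLU35 climb at both steps, and most of the falling genes also fall from Proximal to Medial, with CKX4 and PPDK as exceptions.

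Genes that set up vascular identity rose with the vessel genes. Of 14 measured, 10 rose and none fell by the authors' q, with a median log2 difference of 1.05. AHP6, an inhibitor of cytokinin signalling that marks protoxylem, was at 1.23 FPKM in Proximal, 2.81 in Medial and 14.98 in Distal. The class III HD-ZIP factors, which pattern the xylem axis, were split: ATHB15 rose from 2.88 FPKM in Medial to 13.8 in Distal, PHB rose from 13.8 FPKM in Medial to 32.6 in Distal and ATHB8 rose from 4.19 FPKM in Medial to 9.04 in Distal, while REV was at 6.53 FPKM in Medial and 5.51 in Distal and PHV at 2.76 and 3.83, neither called. TMO5, the bHLH factor that drives divisions in young vascular cells together with LHW, was at 1.15 FPKM in Proximal, 2.80 in Medial and 7.41 in Distal. Its relative T5L1 rose from 1.43 FPKM in Medial to 7.98 in Distal, and LOG3 and LOG4, cytokinin-activating enzymes under their control, rose from 2.78 FPKM in Medial to 7.39 in Distal and from 2.84 FPKM in Medial to 5.92 in Distal. MP, the auxin response factor upstream of TMO5, was at 50.5 FPKM in Proximal, 38.6 in Medial and 30.7 in Distal and did not pass the test. ACL5, a thermospermine synthase that delays vessel death, rose from 5.73 FPKM in Medial to 16.1 in Distal. SHR, which is transcribed in the stele, rose from 8.12 FPKM in Medial to 21.5 in Distal.

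Phloem, cortex, endodermis and epidermis markers had smaller medians. In the phloem list 4 of 8 rose and 2 fell, all under 8 FPKM in both zones: the sucrose transporter gene SUC2 was at 0.833 FPKM in Medial and 1.63 in Distal. Of 9 cortex and endodermis markers 2 rose, or 22.2%, and none was called lower. The Casparian strip gene CASP1 was at 9.47 FPKM in Medial and 8.02 in Distal and was not called. CASP4 was at 8.80 FPKM in Medial and 1.15 in Distal, with q = 0.438 in the authors' deposited table. Of 29 epidermis and root hair genes 7 rose and 1 fell, or 24.1% and 3.45%. The rises included the non-hair cell regulators GL2, from 10.7 FPKM in Medial to 20.7 in Distal, and MYB23, from 11.6 FPKM in Medial to 26.7 in Distal, and the root hair genes RHD2 and COBL9. WER, an epidermal MYB factor of the young meristem, fell from 61.9 FPKM in Medial to 43.1 in Distal. The summed level of the list was 425 FPKM in Medial and 450.3 in Distal. For the vascular list above it was 128 and 196 FPKM. Whether the share of stele cells differed between the sorted populations was not tested.

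The lignin and phenylpropanoid list overlaps the vessel list in the laccases. Of its 24 measured genes 14 rose and 1 fell (median 0.58). Apart from the laccases, CAD5, which makes the lignin alcohols, rose from 8.29 FPKM in Medial to 23.8 in Distal, PAL1, the entry enzyme of the pathway, rose from 7.66 FPKM in Medial to 16.6 in Distal, and MYB58, a lignin regulator, rose from 3.80 FPKM in Medial to 10.8 in Distal. LAC8, another laccase gene, fell from 356 FPKM in Medial to 135 in Distal.

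Most water channel genes rose as well. Of 25 measured aquaporin genes 19 rose and 1 fell, with a median of 0.88, and 10 were at least 2-fold higher. Among plasma membrane aquaporins PIP1;5 was at 8.07 FPKM in Proximal, 13.9 in Medial and 42.9 in Distal, and PIP2B was at 1.21 FPKM in Proximal, 2.39 in Medial and 7.95 in Distal. Among tonoplast aquaporins TIP2;3 was at 2.98 FPKM in Proximal, 6.19 in Medial and 17.9 in Distal, and TIP4;1 was at 5.34 FPKM in Proximal, 24.8 in Medial and 59.0 in Distal. Among the more abundant ones PIP1B was at 301 FPKM in Medial and 384 in Distal and was not called, and NLM1 rose from 322 FPKM in Medial to 452 in Distal. The boric acid channel gene NIP5;1 was the 1 member that fell, from 53.4 FPKM in Medial to 35.7 in Distal. Related PIP genes are close copies, and the labels do not say how reads matching several copies were shared.

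The expansin and XTH genes, whose products loosen or rejoin the primary wall, did not move as a block. Of 38 measured, 12 rose and 7 fell. EXPA12 was at 0.615 FPKM in Proximal, 2.89 in Medial and 17.0 in Distal, and XTH17 was at 0.872 FPKM in Proximal, 4.42 in Medial and 21.2 in Distal. XTH15 rose from 5.24 FPKM in Medial to 19.0 in Distal, and the beta-expansin gene EXPB1 rose from 37.3 FPKM in Medial to 113 in Distal. XTH28 was at 21.3 FPKM in Proximal, 7.10 in Medial and 1.45 in Distal, EXGT-A3 fell from 35.3 FPKM in Medial to 11.8 in Distal and EXPA1 fell from 5.66 FPKM in Medial to 1.67 in Distal. The rising and the falling members both included alpha-expansins and XTH genes.

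In FPKM itself, rather than in ratio, the largest rises of named genes were in BGLU35, MLP-300B, BGLU34 and CEP2. BGLU35 and BGLU34, also known as TGG5 and TGG4, are the myrosinases of the root, which cut glucosinolates into defence compounds. BGLU35 was at 6.53 FPKM in Proximal, 566 in Medial and 2338 in Distal. BGLU34 was at 4.99 FPKM in Proximal, 489.8 in Medial and 1829 in Distal, and MLP-300B, a myrosinase-binding-like protein, was at 9.23 FPKM in Proximal, 753 in Medial and 2202 in Distal. The 3 genes were under 10 FPKM in Proximal and rose at both steps. CEP2, a cysteine endopeptidase gene, was at 97.3 FPKM in Proximal, 1073 in Medial and 2244 in Distal. EDA36, which encodes a serine hydroxymethyltransferase, and CYP96A14P, a cytochrome P450 pseudogene, also rose at both steps, with 0.455 FPKM in Proximal, 39.5 in Medial and 183 in Distal for EDA36 and 0 FPKM in Proximal, 4.56 in Medial and 22.8 in Distal for CYP96A14P. 

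Other genes of the glucosinolate breakdown and beta-glucosidase list fell. Over the whole list 5 of 29 measured genes rose and 10 fell, with a median of -0.28. PYK10, the beta-glucosidase of ER bodies, fell from 1020.3 FPKM in Medial to 702 in Distal. Its relatives BGLU21 and BGLU22 fell from 796 FPKM in Medial to 436 in Distal and from 865 FPKM in Medial to 491 in Distal. NAI1, the bHLH factor needed to form ER bodies, fell from 46.7 FPKM in Medial to 19.7 in Distal. The summed FPKM of the list nevertheless went from 8839 to 11758, with BGLU34, BGLU35 and MLP-300B as the largest rises in it.

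Genes for making ribosomes rose by less than 2-fold. Of 33 measured cytosolic ribosomal protein genes 29 rose and none was called lower, with a median of 0.49, and none reached 2-fold in either direction. RPL18 was at 935 FPKM in Proximal, 1002 in Medial and 1513 in Distal, and RPL3A was at 897 FPKM in Proximal, 884 in Medial and 1294 in Distal. They are the 2 ribosomal protein genes among the 6 largest rises of named genes in FPKM, and neither differed between Proximal and Medial by the authors' q. The range over the whole list was -0.26 to 0.68. SAG24, a ribosomal protein gene of the L10 family, was the one below 0, at 906 FPKM in Medial and 755 in Distal, and was not called. Many of these proteins are encoded by near-identical gene copies, so the split between copies is uncertain.

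The factors that assemble ribosomes in the nucleolus rose in 11 of 22 cases, with a median of 0.46 and none called lower. NUC-L1, the main nucleolin, was at 197 FPKM in Proximal, 213 in Medial and 353 in Distal. FIB2, a fibrillarin that methylates ribosomal RNA, was at 157 FPKM in Proximal, 202 in Medial and 343 in Distal, and its copy FIB1 was at 204 FPKM in Proximal, 179.8 in Medial and 264 in Distal. CBF5, the pseudouridine synthase of the nucleolus, rose from 226 FPKM in Medial to 366 in Distal, and NOP56 rose from 72.2 FPKM in Medial to 117 in Distal. The exosome gene RRP4 rose from 10.7 FPKM in Medial to 19.6 in Distal. The deposited loci of FIB1 and FIB2 also span the small nucleolar RNA genes U60.1F and U60.2F.

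**Figure D2:**
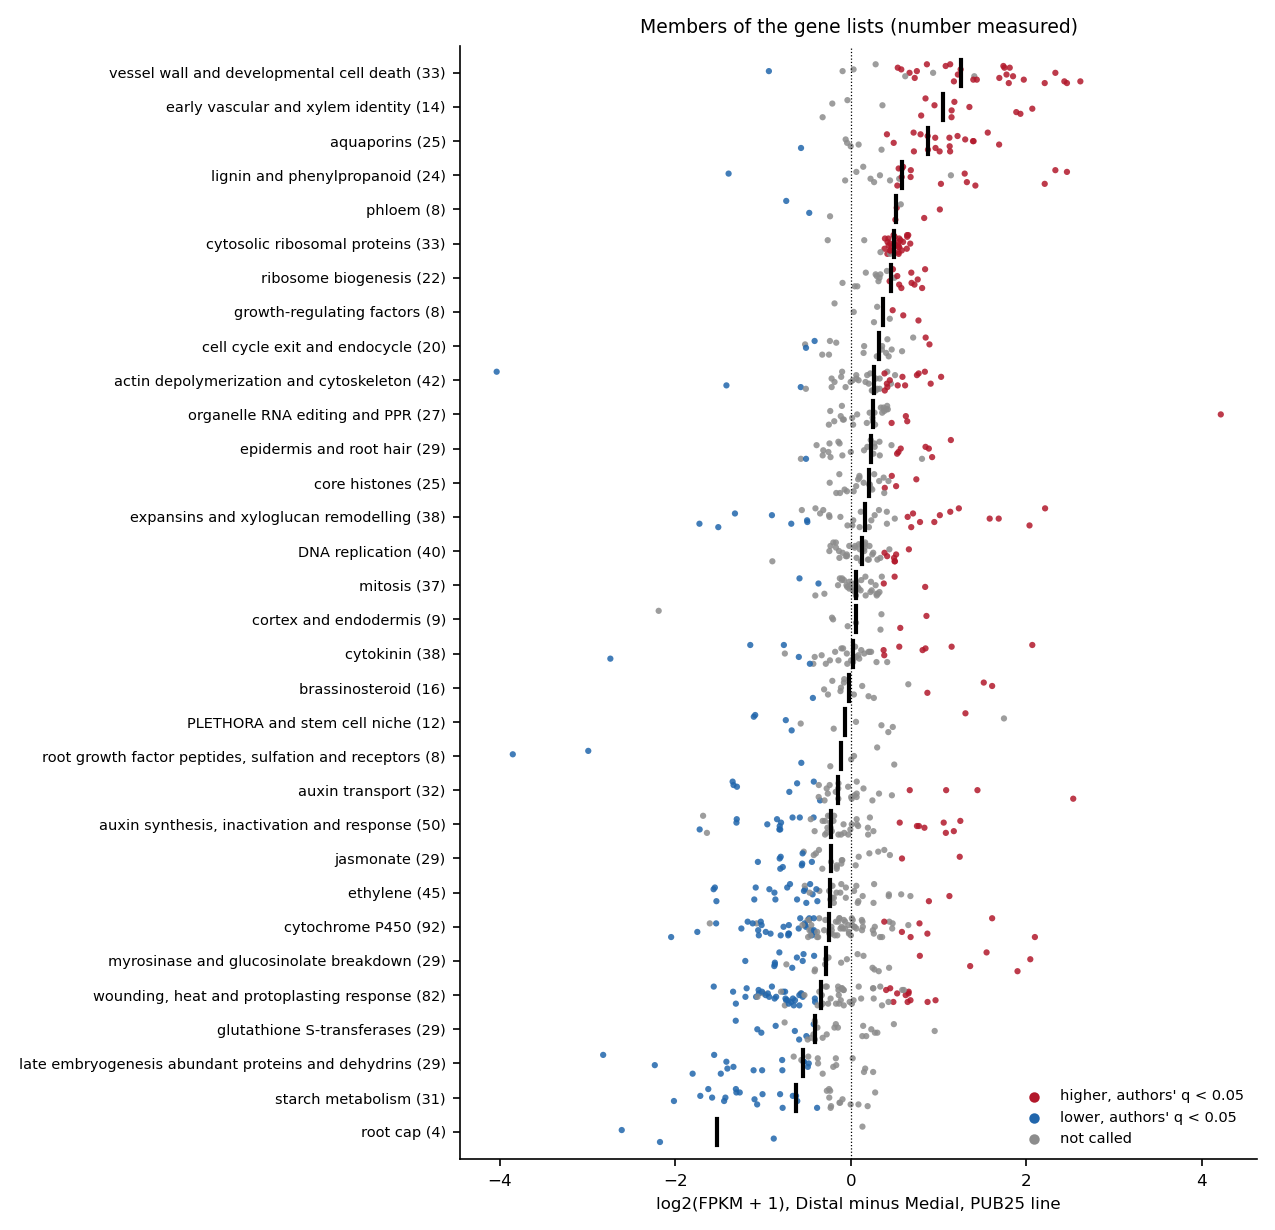
Each point is 1 measured gene, placed by its difference of log2(FPKM + 1), Distal minus Medial in the PUB25 line, in rows for the 32 gene lists (number of measured genes in brackets), with the median of each list as a black bar; red points were called higher and blue points lower by the authors, and grey points were not called. Points right of 0 are higher in Distal; vessel, vascular and aquaporin genes lie to the right with medians of 0.88 to 1.25, ribosomal proteins form a narrow cluster around 0.49, and the root cap, starch and late embryogenesis lists lie to the left.

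The largest falls included peptide genes of the young meristem and a root cap regulator. ADF9, an actin-binding protein of the actin-depolymerizing-factor family, was at 371 FPKM in Proximal, 93.3 in Medial and 4.75 in Distal, a 19.6-fold fall from Medial to Distal. RGF2, one of the root meristem growth factors, was at 182 FPKM in Proximal, 37.6 in Medial and 1.67 in Distal, a 22.5-fold fall, and its relative RGF3 was at 132 FPKM in Proximal, 28.7 in Medial and 2.73 in Distal. NAC094, a NAC factor, was at 151 FPKM in Proximal, 35.3 in Medial and 2.35 in Distal. All 4 were lower in each zone than in the one before it. Of the 8 measured genes for RGF peptides and their sulfation 3 fell, RGF8 being the third, and none rose by the authors' q. The other peptide genes were under 10 FPKM in every zone: RGF1 was at 7.39 FPKM in Proximal, 2.02 in Medial and 3.26 in Distal, and RGF6 stayed under 2 FPKM. TPST, the enzyme that sulfates these peptides, was at 7.29 FPKM in Medial and 6.05 in Distal and was not called.

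In the niche list 4 of 12 genes fell and 1 rose, with a median of -0.07. Among its members with a mean of at least 5 FPKM the median was -0.67. The 4 that fell were PLETHORA genes, and the 1 that rose was SHR, given above. PLT1 was at 47.4 FPKM in Proximal, 18.3 in Medial and 7.94 in Distal, PLT2 at 39.7 FPKM in Proximal, 20.3 in Medial and 11.7 in Distal, AIL6 (also known as PLT3) at 97.9 FPKM in Proximal, 71.0 in Medial and 44.1 in Distal and AIL5 (PLT5) at 18.6 FPKM in Proximal, 10.5 in Medial and 4.399 in Distal. All 4 stepped down through the zones. PLT1 has 2 deposited loci. BBM, also called PLT4, was low throughout, at 1.47 FPKM in Proximal, 0.355 in Medial and 3.54 in Distal, and its higher value in Distal was not called (q = 0.384 in the authors' deposited table). WOX5, which marks the quiescent centre, was under 1 FPKM in all 3 zones. SCR and JKD, which act with SHR around the niche and in the endodermis, were at 6.85 and 4.41 FPKM in Medial and at 8.996 and 4.63 in Distal, neither called.

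Of the 4 root cap markers 3 fell, with a median of -1.53. With names at several loci left out the median was -2.18. FEZ, a NAC factor of root cap stem cells, was at 90.3 FPKM in Proximal, 16.9 in Medial and 1.93 in Distal. SMB, the NAC factor of root cap maturation, was at 129 FPKM in Proximal, 87.8 in Medial and 47.3 in Distal. CEL5, a cellulase gene of shedding cap cells, peaked in Medial, at 201 FPKM in Proximal, 359 in Medial and 78.8 in Distal. BRN2, which acts with SMB in the mature cap, was at 45.3 FPKM in Proximal, 209 in Medial and 229 in Distal and did not change by the test from Medial to Distal. The summed level of the markers was 466 FPKM in Proximal, 673 in Medial and 357 in Distal. None of the 4 was at 0 in any zone, and the part of cap cells in the other falls was not tested.

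Other named genes with large falls belong to no single pathway. ENODL2, an early nodulin-like cell surface protein gene, was at 152 FPKM in Proximal, 57.8 in Medial and 5.69 in Distal. AS2, a LOB domain factor known from leaf polarity, was at 29.7 FPKM in Proximal, 16.7 in Medial and 1.07 in Distal. PEX11D, for peroxisome proliferation, was at 32.8 FPKM in Proximal, 16.6 in Medial and 2.51 in Distal, and OEP16-1, for a plastid envelope channel, was at 155 FPKM in Proximal, 57.2 in Medial and 11.0 in Distal. PPDK, pyruvate orthophosphate dikinase, was at 22.3 FPKM in Proximal, 24.6 in Medial and 4.60 in Distal. PPDK was not called between Proximal and Medial and fell in Distal. 

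Starch genes and stress-protection genes fell in more than 50% of measured cases and none of them rose. These 2 lists were drawn up after the values had been seen, so their counts describe them only. Of 31 measured starch genes 18 fell, against 11.4% of all measured genes, none rose, and the median was -0.62. The enzymes of synthesis and of breakdown fell together. On the synthetic side GBSS1, which makes amylose, was at 35.8 FPKM in Proximal, 7.01 in Medial and 1.94 in Distal. ADG1, the small subunit of ADP-glucose pyrophosphorylase, was at 54.6 FPKM in Proximal, 47.5 in Medial and 18.6 in Distal, and its large subunit gene APL4 was at 12.1 FPKM in Proximal, 6.08 in Medial and 1.37 in Distal. APL1, APL2 and APL3, the other large subunit genes, were under 7 FPKM in both zones and were not called. On the degrading side BAM2, a beta-amylase, was at 134 FPKM in Proximal, 72.4 in Medial and 17.1 in Distal. SEX1, the glucan water dikinase that starts starch breakdown, was at 62.1 FPKM in Proximal, 20.9 in Medial and 5.66 in Distal, and the debranching enzyme gene ISA3 was at 295 FPKM in Proximal, 164 in Medial and 65.5 in Distal. The starch list summed to 1315 FPKM in Medial and 697 in Distal. Starch grains are a feature of the columella in the root cap, and 3 of the 4 cap markers given above fell at the same step; the part of cap cells was not tested.

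Of 29 measured genes for late embryogenesis abundant (LEA) proteins and dehydrins, which protect proteins and membranes in drying cells, 16 fell and none rose, with a median of -0.54. LEA7 was at 300.3 FPKM in Proximal, 219 in Medial and 30.1 in Distal. LEA14 was at 197 FPKM in Proximal, 226 in Medial and 80.3 in Distal, and XERO1, a dehydrin gene, was at 22.8 FPKM in Proximal, 9.36 in Medial and 2.91 in Distal. ERD10, also a dehydrin gene, was among the 6 largest falls of named genes in FPKM, at 1239 FPKM in Proximal, 866 in Medial and 429 in Distal. ERD14, its close relative, was at 182 FPKM in Medial and 204 in Distal and was not called.

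Stress and defence genes fell more often than they rose. In the list for wounding, heat and the response to protoplasting 31 of 82 measured genes fell and 11 rose (median -0.33). WRKY70, a defence regulator, fell from 16.03 FPKM in Medial to 4.77 in Distal, the zinc finger gene ZAT11 fell from 27.2 FPKM in Medial to 10.12 in Distal and CZF1 fell from 205 FPKM in Medial to 96.4 in Distal. The genes that rose in this list included the mitochondrial chaperonins HSP60, from 120.1 FPKM in Medial to 193 in Distal, and HSP60-2, from 44.8 FPKM in Medial to 69.6 in Distal. Of 45 ethylene genes 18 fell and 2 rose. ACS8 and ACO1, for the last 2 steps of ethylene synthesis, fell from 129 FPKM in Medial to 42.8 in Distal and from 25.5 FPKM in Medial to 8.07 in Distal. The response factors ERF2 and ERF5 fell from 97.9 FPKM in Medial to 45.1 in Distal and from 21.8 FPKM in Medial to 9.74 in Distal. Of 29 jasmonate genes 9 fell, among them AOS, OPR3 and LOX3 of hormone synthesis, and 2 rose, AOC2 and JAZ7. The time from cutting to sorting is not given in the sources used here, and whether the populations differed in their response to protoplasting was not tested.

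Detoxifying enzymes also fell more often than they rose. None of 29 measured glutathione S-transferase genes rose and 8 fell. GSTU19 had the largest fall of all named genes in FPKM, at 1806 FPKM in Proximal, 2266 in Medial and 1455 in Distal, and GSTF9 was at 667 FPKM in Proximal, 218 in Medial and 104 in Distal. Of 92 cytochrome P450 genes 29 fell and 7 rose. CYP83B1, of indole glucosinolate synthesis, was at 123 FPKM in Proximal, 39.98 in Medial and 16.3 in Distal, and CYP707A3, which inactivates abscisic acid, was at 57.6 FPKM in Proximal, 91.9 in Medial and 43.7 in Distal. Of the 7 that rose, CPD and DWF4 make brassinosteroids: CPD rose from 7.36 FPKM in Medial to 24.5 in Distal. The other named genes with the largest falls in FPKM were ERD15, from 1653 to 922 FPKM, the calmodulin-like gene CML37, from 778 FPKM in Medial to 339 in Distal, and the SKU5-like gene sks15, from 1127 FPKM in Medial to 695 in Distal. ATAF1, a stress-responsive NAC factor, fell from 1032 FPKM in Medial to 644 in Distal.

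Auxin genes moved in both directions. Of the carriers and their kinases 4 of 32 rose and 7 fell, or 12.5% and 21.9%, against 11.0% and 11.4% of all measured genes. LAX3, an influx carrier, was at 1.05 FPKM in Proximal, 4.07 in Medial and 28.3 in Distal, a 6.97-fold rise from Medial to Distal. PIN4 and PIN3, efflux carriers of the root tip, fell from 81.3 FPKM in Medial to 32.5 in Distal and from 4.90 FPKM in Medial to 3.40 in Distal. PIN2, of the epidermis and cortex, was at 158 FPKM in Medial and 123 in Distal and was not called. In synthesis, YUC8 and YUC9 fell from 96.7 FPKM in Medial to 28.6 in Distal and from 185 FPKM in Medial to 74.3 in Distal, and TAA1, the enzyme of the step before them, rose from 30.2 FPKM in Medial to 64.0 in Distal. Of 50 genes of synthesis, inactivation and response 8 rose and 12 fell. The Aux/IAA repressor genes were in both groups: IAA13, IAA28, IAA5, IAA12 and IAA19 rose, and AXR3 (IAA17), IAA30 and IAA20 fell.

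Cytokinin and brassinosteroid genes were called in both directions. Of 38 cytokinin genes 7 rose and 5 fell, or 18.4% and 13.2%, against 11.0% and 11.4% of all measured genes. CKX4, which degrades cytokinin, was at 16.2 FPKM in Proximal, 28.0 in Medial and 3.34 in Distal, and the cytokinin-activating gene LOG7 rose from 145 FPKM in Medial to 213 in Distal. Of 16 brassinosteroid genes 3 rose, the synthesis genes CPD and DWF4 and the vascular receptor gene BRL2, and 1 fell, the receptor gene BRI1, from 66.3 FPKM in Medial to 48.8 in Distal. The brassinosteroid shares that rose and fell were 18.8% and 6.25%. 

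No measured gene of the lists for mitosis, replication, core histones and cell cycle exit differed 2-fold between the zones. Of 37 mitotic genes 3 rose and 2 fell, and of 40 replication genes 7 rose, or 17.5%, and none was called lower, against 11.0% higher and 11.4% lower of all measured genes. CYCB1;1, a mitotic cyclin, was at 15.5 FPKM in Proximal, 9.60 in Medial and 12.5 in Distal, and CDKB2;2 rose from 11.7 FPKM in Medial to 17.0 in Distal. The replication clamp gene PCNA1 was at 72.6 FPKM in Proximal, 70.7 in Medial and 100.3 in Distal, and the helicase gene MCM4 rose from 12.7 FPKM in Medial to 17.2 in Distal. Of 25 core histone genes 4 rose and none was called lower. Of 20 genes for leaving the cycle and for endoreduplication 2 rose, the inhibitor genes SIM, from 9.52 FPKM in Medial to 18.6 in Distal, and LGO, from 2.66 FPKM in Medial to 5.60 in Distal, and 2 fell, CCS52A2 and KRP4. Of 8 growth-regulating factor genes and cofactors 3 rose, GRF1, GRF4 and GIF1. Of 42 cytoskeleton genes 13 rose, with TUB1 at 7.99 FPKM in Proximal, 70.3 in Medial and 144 in Distal and ACT2 at 89.5 FPKM in Proximal, 204 in Medial and 366 in Distal, and 3 fell, with ADF9 and ADF5 the 2 that fell over 2-fold.

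OTP86 had the largest rise of all named genes, but its row cannot be read as that gene alone. OTP86, a pentatricopeptide repeat protein for RNA editing in plastids, was at 0.727 FPKM in Proximal, 0.649 in Medial and 29.6 in Distal. The deposited locus of the row is chr3:23402060-23406610 on the plus strand of TAIR10. In the reference annotation the OTP86 gene ends at base 23405991, and the locus runs on over the whole of MIR167b (AT3G63375, chr3:23406168-23406276, same strand), which has no row of its own here. Reads of the 2 genes therefore cannot be told apart in this value. The other measured genes for organelle RNA editing and pentatricopeptide repeat proteins stayed between -0.25 and 0.64 on the log2 scale, and 4 of 27 rose in all, the editing factors MORF1, MORF6 and RIP1 being the other 3. The mature microRNA in the extended part of the locus is given here from the RefSeq genome (chr3:23406177-23406197, plus strand) with its seed, bases 2 to 8, in capitals.
miR167b: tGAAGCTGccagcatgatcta
The family pairs with the transcripts of ARF6 and ARF8, auxin response factors. ARF6 fell from 24.1 FPKM in Medial to 17.7 in Distal, and ARF8 was at 19.7 FPKM in Medial and 20.7 in Distal and was not called.

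Genes listed at 0 in 1 of the 2 zones are given as values without a fold. Of the measured genes 86 were listed at 0 in Medial and 74 in Distal, but the authors' test called only 3 and 4 of them. The highest in Distal with 0 in Medial were AT2G07745 with 133 FPKM, AT1G45236 with 113, AT3G50835 with 107, AT1G19373 with 91.8 and AT2G34186 with 54.8. The deposited locus of AT1G45236 holds 8 other annotated genes. The highest in Medial with 0 in Distal were AT3G52345 with 175 FPKM, AT4G34035 with 166, U60.2F with 113, AT2G20721 with 106 and AT4G02555 with 87.7. Of these 10 only AT2G20721 had q under 0.05 in the authors' deposited table (q = 0.00731). U60.2F lies in the deposited locus of FIB2, given above, so its 0 cannot be read apart from that gene. Several of the 10 have very short deposited loci, such as chr4:16304124-16304196 for AT4G34035. FPKM is scaled to length, so a few fragments can give a high value at such a locus. 

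The same 2 zones were sorted in the other lines from separate libraries, and the values stand side by side here. In the SPT line 11.7% of 17365 measured genes rose and 10.3% fell from Medial to Distal by the authors' q. In TMO5 2.11% of 15061 rose and 0.00664% fell, which is 1 gene. Over the 15908 genes measured in both PUB25 and SPT, 300 rose in both lines, 17.1% of the 1757 rises in PUB25 and 15.9% of the 1891 in SPT. A larger number, 561 or 31.9% of the rises in PUB25, fell in SPT, where 10.5% of these genes fell. Of the 1849 falls in PUB25, 149 or 8.06% fell in SPT and 400 or 21.6% rose there, against 11.9% of all these genes. Over the 14518 genes measured in both PUB25 and TMO5, 83 rose in both, 5.03% of the 1650 rises in PUB25 and 27.2% of the 305 in TMO5, where 2.10% of these genes rose. Of the 1442 falls in PUB25 1 fell in TMO5 and 82 rose there, 5.69%. Genes that rose and genes that fell in PUB25 were thus called higher in TMO5 at like shares, and with 1 fall in all, TMO5 could show at most 1 opposite call for the rises, and showed 0. The difference between lines was not itself tested for single genes.

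For the vessel list the lines differed. In PUB25 26 of 33 rose, in SPT 5 of 32 rose and 6 fell, and in TMO5 13 of 30 rose. The medians were 1.25, -0.50 and 3.05 on the log2 scale. XCP2 in SPT was at 2.78 FPKM in Proximal, 648 in Medial and 368 in Distal, with no call from Medial to Distal. In TMO5 it was at 167 FPKM in Proximal, 7.54 in Medial and 405 in Distal. LAC17 in SPT was at 0.302 FPKM in Proximal, 62.9 in Medial and 33.9 in Distal, a fall from Medial to Distal, and in TMO5 at 9.01 FPKM in Proximal, 0.633 in Medial and 17.8 in Distal. By value, XCP2 and LAC17 were thus highest in Medial in SPT and highest in Distal in PUB25 and TMO5. In TMO5 both were far lower in Medial than in Proximal, and in PUB25 neither was called between those zones. MC9 also rose in SPT, with 25.2 FPKM in Medial and 249 in Distal, and in TMO5 was at 0.573 FPKM in Medial and 11.1 in Distal without a call. BGLU35 also rose in SPT, with 6.66 FPKM in Medial and 1325 in Distal, as did EDA36 with 0.491 FPKM in Medial and 120.1 in Distal. The early vascular genes, 10 of which rose in PUB25, had no rise in SPT, where 5 fell, and no call in TMO5. 

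The ribosome genes rose in PUB25 and fell in SPT. In SPT 15 of 22 ribosome biogenesis genes fell, with a median of -1.26, and 27 of 33 ribosomal protein genes fell, with a median of -0.90. In TMO5 no member of either list was called, and the medians were -0.38 and -0.40. NUC-L1 in SPT was at 322 FPKM in Proximal, 101 in Medial and 34.2 in Distal. The replication and histone lists also fell in SPT, in 18 of 38 and 13 of 25 members. PLT1 also fell in SPT, where it was at 60.9 FPKM in Proximal, 8.05 in Medial and 1.41 in Distal. Of the root cap markers 3 rose in SPT and 1 fell, with a median of 0.92 against -1.53 in PUB25. The 1 that fell was FEZ, at 45.1 FPKM in Proximal, 11.3 in Medial and 1.43 in Distal. The starch and LEA lists, with 18 and 16 falls in PUB25, had 5 and 2 in SPT, where 1 starch gene and 6 LEA genes rose and the medians were -0.01 and 0.15.

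**Figure D3:**
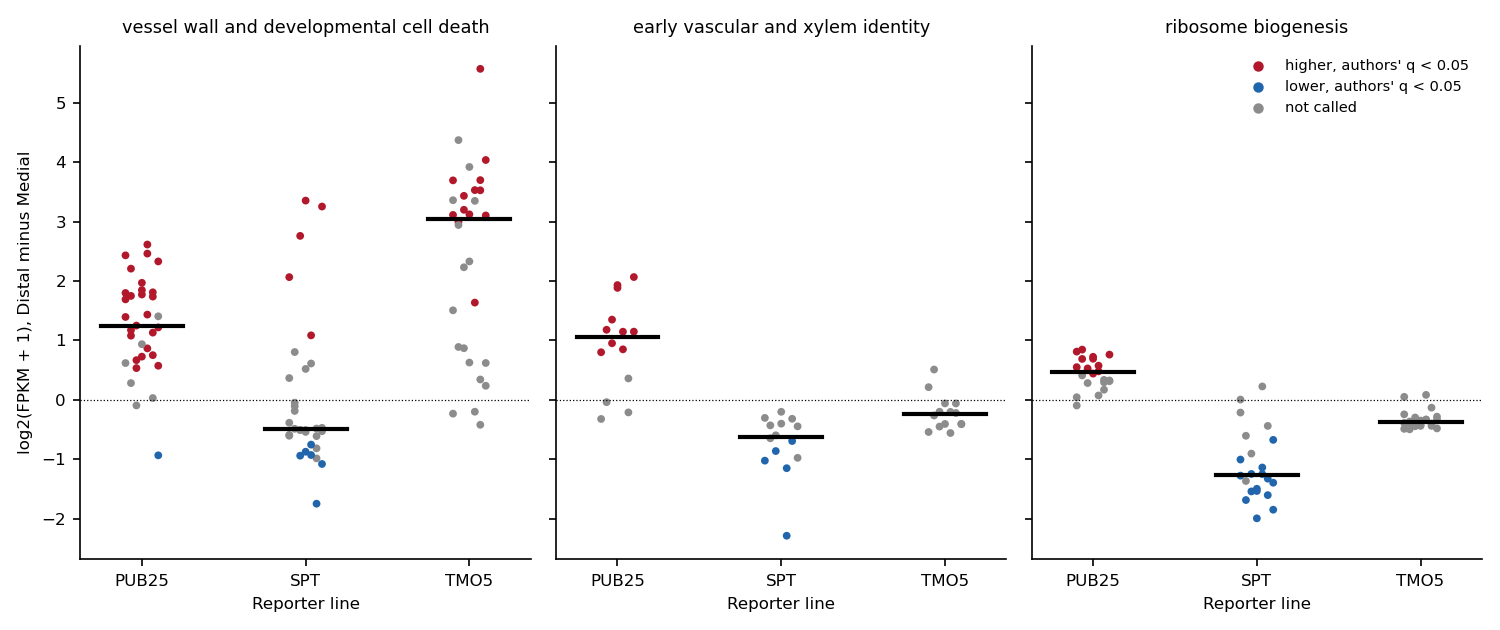
Difference of log2(FPKM + 1), Distal minus Medial, in the PUB25, SPT and TMO5 lines for vessel, early vascular and ribosome biogenesis genes measured in PUB25 and in the line shown; each point is 1 gene, red where the authors called it higher, blue where lower and grey where not called, with the median as a black bar. Genes of vessel walls and developmental cell death have medians of 1.25, -0.50 and 3.05, with 5 called higher and 6 lower in SPT. Ribosome biogenesis genes have medians of 0.46, -1.26 and -0.38.

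Promoter sequences were searched for known motifs in the window from 250 bases before to 50 after the annotated start of 15345 measured protein-coding genes, on both strands. A match is a string of letters and not evidence of binding. The telo box, AAACCCTA, is common in promoters of the translation machinery. It was in 5.88% of all promoters, in 12.6% of those of genes that rose and in 2.18% of those that fell. Among the genes that rose at least 2-fold the share was only 3.06%. It was in 11 of 22 ribosome biogenesis promoters and in 18 of 33 ribosomal protein promoters. The site II element, TGGGCC, was in 20.2% of all promoters, in 21.7% of the rising and 10.2% of the falling ones, and in 23 of 33 of ribosomal proteins. Its share among the genes that rose at least 2-fold was only 5.61%. 

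The G-box, CACGTG, bound by bZIP and bHLH factors, was in 9.20% of all promoters, 6.32% of the rising and 13.0% of the falling ones. It was in 12 of 29 LEA promoters and 9 of 31 starch promoters. The W-boxes TTGACC and TTGACT, sites of WRKY factors, were in 14.6% and 22.1% of all promoters and in 18.4% and 28.2% of the falling ones. The mitotic element CCAACGG was in 2.30% of all and 2.59% of the rising promoters, and the GCC box, GCCGCC, in 2.78% and 2.18%. TATAAA was in 51.2% of all, 56.1% of the rising and 55.9% of the falling promoters. The 11-letter core of the tracheary element-regulating element, known from promoters of vessel wall and cell death genes and added after the values were seen, was rare. It was in 78 of all promoters, 0.508%, in 8 of 392 of those that rose at least 2-fold, 2.04%, and in 3 of 33 of the vessel list, MC9, XCP1 and CESA4.

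**Figure D4:**
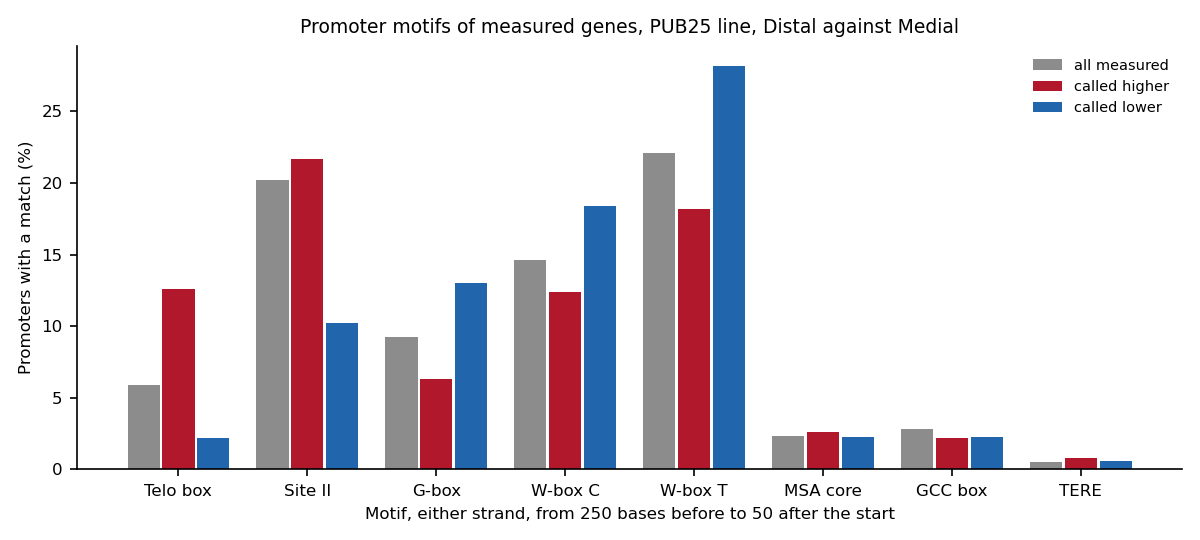
Bars give the percent of promoters with at least 1 match, for all measured protein-coding genes, for those that rose and for those that fell from Medial to Distal in the PUB25 line by the authors' q. The telo box reaches 12.6% in rising and 2.18% in falling genes, and the G-box and the 2 W-boxes are more frequent in falling than in rising genes.

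The 250 bases before the annotated start are shown for 7 genes, chosen as examples from the called members with a match, to show where the motifs lie. Only matches to the motif named for each gene are in capitals, and other motifs searched above also occur in lower case. The sequences are from the RefSeq TAIR10.1 genome and read 5′ to 3′ on the strand of the gene, and no other annotated gene lies in these windows. MC9 (chr5:1153490-1153739, plus strand) and XCP1 (chr4:16810232-16810481, plus strand) carry the tracheary element motif, which begins 63 and 75 bases before the start. FIB1 (chr5:21293897-21294146, plus strand) and the ribosomal protein gene RPS5A (chr3:3779546-3779795, minus strand) carry the telo box. LEA7 (chr1:19619474-19619723, plus strand), the LEA gene AT3G53040 (chr3:19666498-19666747, minus strand) and BAM2 (chr4:222039-222288, plus strand) carry the G-box, AT3G53040 at 2 places. AT3G53040 was at 112 FPKM in Proximal, 18.8 in Medial and 3.20 in Distal, and RPS5A at 314 FPKM in Proximal, 305 in Medial and 417 in Distal.
MC9: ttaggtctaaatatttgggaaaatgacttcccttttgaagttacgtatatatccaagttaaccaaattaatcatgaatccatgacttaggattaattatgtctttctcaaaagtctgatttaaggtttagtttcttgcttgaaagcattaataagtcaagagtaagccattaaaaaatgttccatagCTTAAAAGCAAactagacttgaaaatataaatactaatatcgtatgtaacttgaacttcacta
XCP1: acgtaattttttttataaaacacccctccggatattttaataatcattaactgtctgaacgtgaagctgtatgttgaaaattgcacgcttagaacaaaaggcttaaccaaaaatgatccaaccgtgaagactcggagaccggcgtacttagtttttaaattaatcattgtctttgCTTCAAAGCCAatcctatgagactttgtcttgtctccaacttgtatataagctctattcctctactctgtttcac
FIB1: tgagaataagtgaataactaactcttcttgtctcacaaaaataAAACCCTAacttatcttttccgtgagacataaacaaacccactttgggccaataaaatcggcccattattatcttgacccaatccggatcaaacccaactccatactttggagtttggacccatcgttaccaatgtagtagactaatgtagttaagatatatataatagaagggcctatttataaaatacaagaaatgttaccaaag
RPS5A: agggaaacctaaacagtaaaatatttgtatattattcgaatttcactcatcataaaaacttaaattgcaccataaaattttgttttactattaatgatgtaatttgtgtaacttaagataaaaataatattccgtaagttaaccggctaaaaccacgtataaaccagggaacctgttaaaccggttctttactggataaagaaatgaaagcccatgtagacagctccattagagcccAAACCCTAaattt
LEA7: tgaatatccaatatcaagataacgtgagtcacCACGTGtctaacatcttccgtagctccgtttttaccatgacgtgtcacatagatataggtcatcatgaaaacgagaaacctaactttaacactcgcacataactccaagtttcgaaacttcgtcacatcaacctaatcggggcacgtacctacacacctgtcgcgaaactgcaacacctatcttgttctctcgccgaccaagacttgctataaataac
AT3G53040: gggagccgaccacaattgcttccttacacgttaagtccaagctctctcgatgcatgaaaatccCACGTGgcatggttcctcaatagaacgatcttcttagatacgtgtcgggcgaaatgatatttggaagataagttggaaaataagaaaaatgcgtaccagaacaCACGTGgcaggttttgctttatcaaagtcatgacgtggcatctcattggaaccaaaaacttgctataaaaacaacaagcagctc
BAM2: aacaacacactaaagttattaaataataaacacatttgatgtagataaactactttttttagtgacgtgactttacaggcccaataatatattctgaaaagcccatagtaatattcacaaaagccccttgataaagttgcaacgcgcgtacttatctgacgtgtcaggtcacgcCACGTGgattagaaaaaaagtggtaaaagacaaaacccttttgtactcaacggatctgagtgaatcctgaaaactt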

How the data were processed

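Total RNA from sorted protoplasts was sequenced with NuGEN Ovation libraries, per the labels' protocols. Bowtie, TopHat, Cufflinks and Cuffdiff and the build TAIR10 are named in the submitters' processing notes, and versions are not given in the sources used here. The authors deposited FPKM for each zone from pooled replicates, with log2 fold changes and q values (adjusted p-values) for each pair of zones, per the file headers. From these, log2(FPKM + 1) was compared between zones with pandas 2.3.3 and numpy 2.4.6. With 1 value per zone a linear model across samples could not be fitted, so calls are the authors' q. Deposited loci and the reference genes (TAIR10.1) were compared: 99.0% of 26616 single loci covered the gene of the same name within 1000 bases. Genes were named by rule: the 12 largest rises and falls in log2 and the 6 largest in FPKM with q under 0.05, at least 5 FPKM in the higher zone and a symbol; up to 5 genes at 0 in a zone; and the line genes, PLT1, PLT2, WOX5 and the leading members of each list, with others needed to describe it. Members and lists were chosen with earlier results of these data known. Depth is unknown, so no interval is given.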

Additional observations from a re-analysis of the deposited data

Results flagged for a closer look

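A few named genes were called in opposite directions by the authors' deposited tables for PUB25 and SPT, which share no library; the difference between the lines was not tested. On the log2(FPKM + 1) scale, Distal minus Medial, the gene TMO5 was 1.15 in PUB25 and -1.15 in SPT. LAC17 was 2.21 in PUB25 and -0.87 in SPT. RPL18 was 0.59 and -0.73, and RPL3A was 0.55 and -0.89. In the other direction CKX4 was -2.74 in PUB25 and 0.76 in SPT, and sks15 was -0.70 and 1.88.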

How the results depend on the processing

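No paired analysis was possible because the deposited tables hold 1 value per zone made from pooled replicates, and for the same reason no replicate could be left out. The number of genes at least 2-fold higher in Distal, 539, was 289 with a mean of at least 5 FPKM, and the number lower, 508, was 782 with a pseudocount of 0.1. With the authors' q under 0.05 in place of the fold the counts were 1823 and 1890. Counts under the other planned settings, among them quantile normalization and median centring, were within 1.5 times of these. Quantile normalization and median centring changed the sign of no list median and of no named gene's difference, and moved the median of all genes by under 0.1. A pseudocount of 0.1 moved 17 of 40 named genes by over 0.2 on the log2 scale and changed no sign. Without a filter, 2 list medians changed sign. With a mean of at least 5 FPKM 2 did, those of phloem, from 0.51 to -0.61, and of cell cycle exit, from 0.32 to -0.01. The cause was not tested. Leaving out joined names and names with several loci moved 1 list median by over 0.2, that of the root cap. Precision is limited by pooled values with unknown depth, most for genes of few FPKM.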
